A study of Homo sapiens with 6 samples.

Results

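The circadian clock genes described here are PER1, PER2, PER3, CRY1, CRY2, ARNTL, CLOCK, NR1D1, NR1D2 and DBP. These 10 genes were listed by name, with earlier results of these data known. All 10 were found among the 23686 genes in the count files and had enough reads to be tested. ARNTL is the older symbol of BMAL1 and is kept because the files use it. RNA was sequenced from 6 samples of HEK293, an established human embryonic kidney line, and every sample consisted of cells that carried GFP and were collected by sorting for it. The 3 ROS co-culture samples had shared a dish for 10 h with HEK293 cells carrying DAAO, short for D-amino acid oxidase, which releases hydrogen peroxide from D-amino acids. The 3 control samples were sorted GFP-positive cells labelled as wild-type controls. One treatment text, with D-alanine at 25 µM, is attached to all 6 samples, so the labels do not say whether the controls received D-alanine or had partner cells. The labels give 1 collection time and name no step that synchronises the cells, so the values are levels at that time and say nothing of rhythm or phase. They also do not say that the replicates came from separate cultures, so the p-values measure the spread between these samples, which may be technical.

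The mammalian clock is a feedback loop of transcription. CLOCK and ARNTL bind together to E-box sequences and activate the PER and CRY genes, whose proteins return to the nucleus and repress that activity. NR1D1 and NR1D2, which encode the nuclear receptors REV-ERB alpha and beta, repress ARNTL and form an interlocking loop, and DBP, a bZIP factor, carries E-box activity on to D-box sequences. PER1 and PER2 are also induced directly by cyclic AMP, serum and, for PER1, glucocorticoids, and the clock is known to respond to the redox state of the cell.

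Promoter sequence is shown for PER1 and NR1D2, which hold the searched E-box letters, and for ARNTL, the member with the lowest p-value. The sequences are from RefSeq's GRCh38.p14 tables and lie before an annotated transcription start, trimmed to leave out bases that GENCODE release 29 annotates as exon. Capitals mark matches on either strand to the E-box CACGTG, the cyclic AMP element TGACGTCA, the D-box TTATGTAA or TTACGTAA, and the REV-ERB and ROR half-site TAGGTCA or TGGGTCA. The PER1 window is chr17:8152436-8152654 on the minus strand, the ARNTL window chr11:13277668-13277789 on the plus strand, and the NR1D2 window chr3:23945871-23946120 on the plus strand, before the gene's second start.
PER1: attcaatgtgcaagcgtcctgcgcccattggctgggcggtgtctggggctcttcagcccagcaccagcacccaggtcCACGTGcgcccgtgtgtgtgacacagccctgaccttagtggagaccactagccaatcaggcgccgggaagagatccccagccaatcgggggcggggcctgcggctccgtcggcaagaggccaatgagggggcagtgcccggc
ARNTL: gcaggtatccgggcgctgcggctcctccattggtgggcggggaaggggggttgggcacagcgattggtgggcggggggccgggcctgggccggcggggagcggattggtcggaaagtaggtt
NR1D2: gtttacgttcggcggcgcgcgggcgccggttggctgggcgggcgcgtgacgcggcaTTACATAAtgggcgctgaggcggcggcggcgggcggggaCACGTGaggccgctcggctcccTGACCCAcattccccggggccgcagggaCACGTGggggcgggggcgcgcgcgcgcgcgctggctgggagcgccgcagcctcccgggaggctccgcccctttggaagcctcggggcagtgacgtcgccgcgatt

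The PER1 window holds 1 E-box, which begins 173 bases before the start. The NR1D2 window holds 2 E-boxes, at 155 and 105 bases before the start, with a D-box match at 194 and a half-site match at 133. The printed ARNTL window holds none of the searched letters. The search took exact letters before the start only, so it does not show that the gene lacks such elements in other forms or places. All 10 members were matched to 15 windows of 250 bases before a start. An E-box was found in 2 of the 15 windows, against 6.34% of all 35116 windows of that length. A D-box was found in 2 windows (0.94% of all windows) and a half-site in 3 (4.82% of all windows). These windows belonged to 2, 2 and 3 members. The cyclic AMP element was found in 0 of the 15 windows and in 1.65% of all windows. These are matches of letters in short windows, not sites shown to be bound.

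Reads counted on the strand of each gene totalled between 19091085 and 36250314 per library, and the members together took between 4975 and 8748 reads. Levels are given as CPM, the reads of a gene relative to its library's total, after scaling between libraries by trimmed means of M-values (TMM). The libraries differed in a technical measure that partly followed the groups. In well-covered genes the reads on the unexpected strand had a median share of 0.124% and 0.211% in co-culture libraries 2 and 3. The share lay between 1.57% and 1.75% in the other 4. Results of a second fit, with a batch term for this strand class, accompany the main ones. In it co-culture library 1 alone stands against the controls. All 8 HEK293 marker genes looked up (neurofilament, keratin, vimentin and renal developmental genes) had more than 3 reads in every library, with a summed level of 1973 to 2055 CPM in the controls and 2390 to 2598 CPM in co-culture. Of 8 markers of blood, stromal, endothelial, liver and muscle cells, 1 reached a mean of 1 CPM, LUM, and their sum was 10.1 to 11.9 CPM in the controls and 6.23 to 8.17 CPM in co-culture. CD3E had 0 reads throughout, which allows up to 3 reads, or 0.0838 to 0.156 CPM, per library, as a limit of counting error only. Most of the difference in the HEK293 sum lay in VIM, with means of 967 and 1279 CPM, while PAX2 was lower in co-culture (7.79 and 6.58 CPM). In the edgeR test described below VIM and LUM passed (log2 fold changes 0.40 and -0.67, edgeR adjusted p 0.00793 and 0.0293), and no other tested marker did. The part of these marker differences in the clock results was not tested.

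None of the 10 clock genes passed the test. In the quasi-likelihood test of edgeR, adjusted by Benjamini and Hochberg's method over all 14582 tested genes, 0 of 10 had an adjusted p under 0.05, beside 4.83% of all tested genes, and 1, ARNTL, had an unadjusted p under 0.05, beside 23.2% of all tested genes. A count of 0 among 10 genes is near the share over all genes and sets the members apart in neither way. DESeq2 and limma-voom also called 0 of 10 members, each with 1 unadjusted p under 0.05. The fitted log2 fold changes of co-culture against control ran from -0.30 for ARNTL to 0.05 for PER2, with 9 below 0 and a median of -0.10, while the median over all tested genes was 0.00. Of all 14582 tested genes 7353 lay below 0. Several members lie near 0, and their count below 0 fell to 6 in the fit without control 3. In 9 of 10 genes the 95% interval of the fold stayed within 1.5-fold either way, and over all 10 the intervals reached from 0.65-fold (DBP) to 1.29-fold (PER2). A larger change of the mean, such as a doubling of any member, lay outside these intervals. In bulk RNA a level that changes in all cells and one that changes in some of them cannot be told apart, nor can fewer cells of a kind and less RNA per cell.

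**Figure D1:**
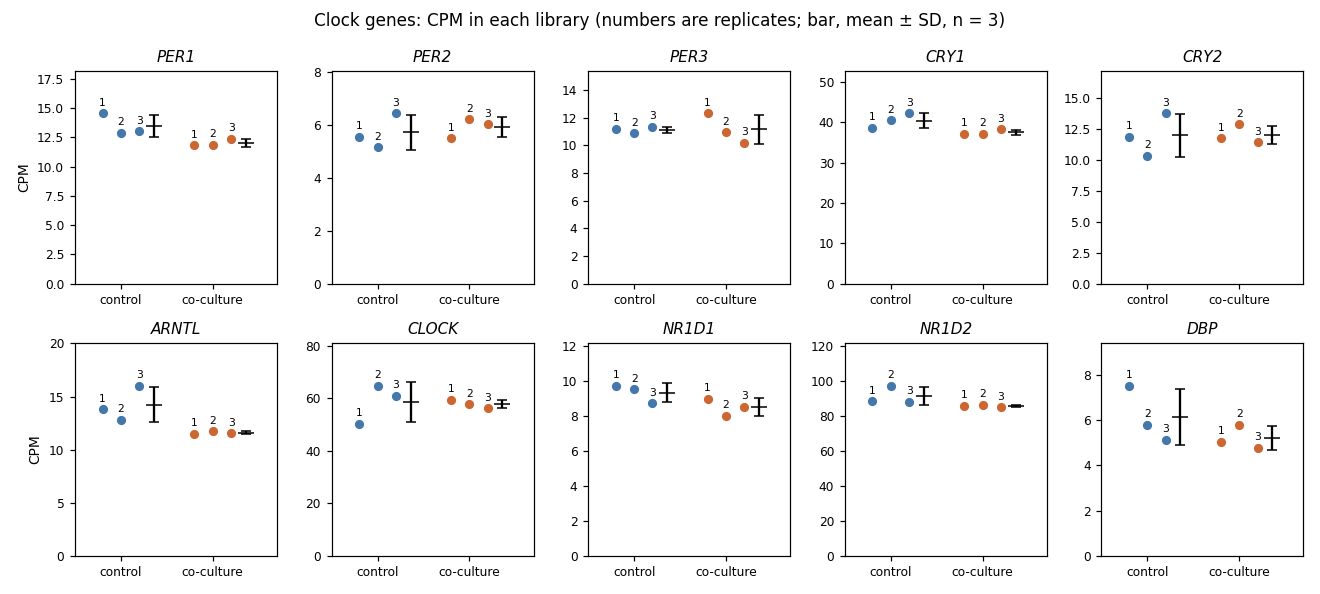
Level of each clock gene in CPM (vertical axes from 0) in the 3 control libraries (blue) and the 3 ROS co-culture libraries (orange), numbered by replicate, with the mean ± SD of each group (n = 3) as a black bar. The groups overlap in 6 of the 10 genes, and in PER1, CRY1, ARNTL and NR1D2 all co-culture points lie a little below all control points.

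Of the activators, ARNTL encodes a partner of CLOCK. Its level was 13.8, 12.8 and 16.0 CPM in controls 1, 2 and 3 and 11.5, 11.7 and 11.5 CPM in co-culture libraries 1, 2 and 3. Every co-culture library lay below every control, by little against control 2 and by more against control 3. The group means were 14.2 ± 1.64 and 11.6 ± 0.124 CPM (SD, n = 3 each). This is 0.81-fold with a 95% interval of 0.69 to 0.96, or -0.30 on the log2 scale (SE 0.11), and the edgeR adjusted p was 0.129. With a batch term for strand class the value was -0.31 (edgeR adjusted p 0.490). ARNTL passed the threshold in 1 of 15 other settings, the fit without control 1 (-0.33, edgeR adjusted p 0.0387), and its adjusted p over all 15 ran from 0.0387 to 0.490. In that fit 3069 of 14734 tested genes passed, against 704 of 14582 in the main fit. A pass without control 1, here or below, stands beside that larger share.

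CLOCK encodes the DNA-binding partner of ARNTL and was carried by the second most reads of the members. It stood at 50.2, 64.8 and 60.9 CPM in controls 1, 2 and 3 and at 59.3, 57.6 and 56.1 CPM in the co-culture libraries. The co-culture values fell inside the range of the controls, which was set by a low control 1 and a high control 2. The log2 fold change was -0.02 (SE 0.09, edgeR adjusted p 0.896), with a 95% interval of 0.86- to 1.13-fold. It was 0.02 with the batch term and -0.12 without control 1.

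Among the repressors, PER1 is the PER gene best known as an acute-response gene. It had 14.6, 12.9 and 13.0 CPM in controls 1, 2 and 3 and 11.8, 11.9 and 12.4 CPM in co-culture libraries 1, 2 and 3. The groups did not overlap, with co-culture lower, but the gap between the nearest libraries was smaller than the spread of the controls. The log2 fold change was -0.16 (SE 0.10, edgeR adjusted p 0.350), with a 95% interval of 0.77- to 1.04-fold. With a batch term for strand class it was -0.19, and without control 1 it was -0.10.

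PER2, the other light- and stimulus-inducible PER gene, was the only member with a fitted value above 0. It had 5.56, 5.16 and 6.44 CPM in the controls and 5.50, 6.22 and 6.03 CPM in co-culture, with full overlap (log2 fold change 0.05, SE 0.14, edgeR adjusted p 0.884). With a batch term for strand class it stood at -0.06, and without control 2 at -0.02. PER3, a PER gene that is not needed for the core loop in mice, had 11.2, 10.8 and 11.3 CPM in the controls and 12.3, 10.9 and 10.2 CPM in co-culture, where library 1 was above and library 3 below every control. Its log2 fold change was -0.00 (SE 0.11, edgeR adjusted p 0.992), and 0.15 with a batch term for strand class.

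CRY1, the stronger of the cryptochrome repressors, had 38.6, 40.5 and 42.2 CPM in controls 1, 2 and 3 and 37.1, 37.1 and 38.2 CPM in co-culture. Co-culture library 3 and control 1 differed by less than 1 CPM, so the groups were separate by a narrow margin only. The log2 fold change was -0.11 (SE 0.07, edgeR adjusted p 0.357). CRY2, its paralogue, had 11.9, 10.3 and 13.8 CPM in the controls and 11.8, 12.9 and 11.4 CPM in co-culture, with every co-culture value inside the control range (log2 fold change -0.01, SE 0.12, edgeR adjusted p 0.986). With the batch term CRY1 and CRY2 stood at -0.12 and -0.03.

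In the REV-ERB loop, NR1D2 had the highest level of the members. It stood at 88.4, 97.6 and 88.3 CPM in controls 1, 2 and 3 and at 85.8, 86.6 and 85.1 CPM in co-culture. All co-culture values lay below all controls, and controls 1 and 3 were much closer to the co-culture libraries than to control 2. The log2 fold change was -0.09 (SE 0.06, edgeR adjusted p 0.405), and -0.04 without control 2. NR1D1 had 9.75, 9.55 and 8.75 CPM in the controls and 9.01, 8.03 and 8.55 CPM in co-culture, an overlap through control 3 and co-culture library 1 (log2 fold change -0.13, SE 0.12, edgeR adjusted p 0.536). NR1D1 overlaps the thyroid hormone receptor gene THRA on the opposite strand by 1081 bases in GENCODE release 29, and 26.2% of all reads over NR1D1 were on that strand, against 0.175% to 2.87% for the other 9 members. NR1D1 stood at -0.11 when reads were counted without regard to strand and at -0.05 with the batch term for strand class, where NR1D2 stood at -0.09.

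DBP, the E-box output that drives D-box genes, had the fewest reads of the members in 4 of 6 libraries and the widest interval. It had 7.53, 5.79 and 5.14 CPM in controls 1, 2 and 3 and 5.05, 5.80 and 4.78 CPM in co-culture. Control 1 stood above the other 5 libraries, which overlapped. The log2 fold change was -0.24 (SE 0.17, edgeR adjusted p 0.438), and without control 1 it was -0.07. With the batch term it was -0.28. Over the fits that left out 1 library its value ran from -0.36 to -0.07, the widest such range of the 10 members.

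Counting groups that did not overlap, 4 of 10 members had all co-culture libraries below all controls and 0 had them above, beside 15% and 14.3% of all tested genes, or 29.3% in either direction. The 4 genes were PER1, CRY1, ARNTL and NR1D2, and their fitted log2 fold changes lay between -0.30 and -0.09. The summed level of the 10 members was 251, 270 and 266 CPM in controls 1, 2 and 3 and 249, 249 and 244 CPM in co-culture. With libraries scaled by total counts in place of TMM, the median of the members was -0.13 and that of all tested genes -0.04. With TMM they were -0.10 and -0.002. Both medians moved together, so the members' median taken alone depends on the scaling. It lay below that of all tested genes under both scalings.

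The controls were more scattered than the co-culture libraries. The coefficient of variation was larger in the controls for 8 of 10 members, beside 69.0% of all tested genes, with a median of 9.18% in the controls and 4.24% in co-culture for the members and of 8.68% and 5.43% for all tested genes. For ARNTL it was 11.6% in the controls and 1.07% in co-culture, where counting error alone would give about 5.81%, so the closeness of its 3 co-culture values is tighter than the depth can resolve. PER3 went the other way, with 2.14% in the controls and 9.63% in co-culture, and NR1D1 had 5.69% and 5.73%. For CLOCK the values were 12.9% and 2.75%, with a counting error near 2.80% in the controls.

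Ratios of read counts within a library do not depend on the scaling between libraries. Of 10 such ratios, 1 did not overlap between the groups, while 29.3% of all tested genes taken singly did not overlap in CPM. The share over other gene pairs was not computed, so the count is a description only. PER2 reads per ARNTL read were 0.403, 0.402 and 0.402 in controls 1, 2 and 3 and 0.478, 0.530 and 0.523 in co-culture. The agreement of the 3 controls is closer than reads of this number can resolve. CLOCK reads per ARNTL read were 3.64, 5.05 and 3.80 in the controls and 5.15, 4.91 and 4.86 in co-culture, and control 2 lay among the co-culture libraries. PER1 reads per ARNTL read were 1.05, 1.00 and 0.811 in the controls and 1.03, 1.01 and 1.07 in co-culture, and NR1D2 reads per NR1D1 read ran from 9.07 to 10.2 and from 9.53 to 10.8. These ratios compare the groups, not the levels of the genes, which differ in length.

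**Figure D2:**
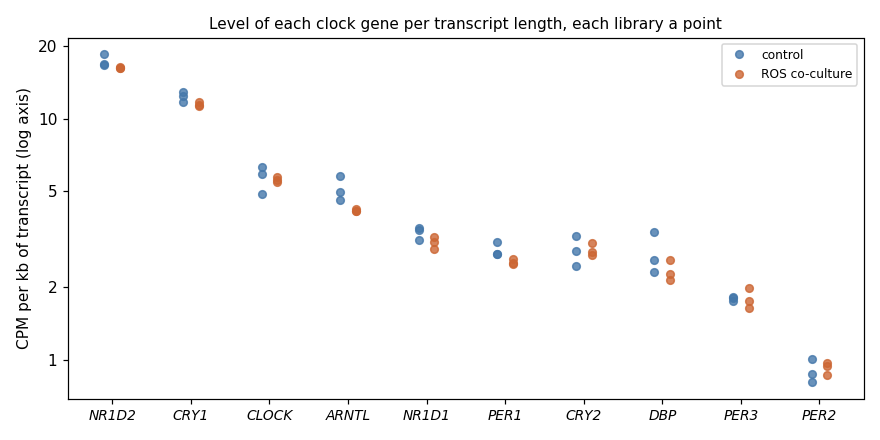
Level of each clock gene in CPM per kilobase of its principal transcript in GENCODE release 29 (log axis), with the 3 control (blue) and 3 ROS co-culture (orange) libraries as points, ordered by the control mean. NR1D2 and CRY1 lie above the other members in every library and PER2 lies lowest.

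Per kilobase of the principal transcript in GENCODE release 29, the order of levels was the same at the top and the bottom in both groups. NR1D2 was highest, at 17.4 ± 1.01 CPM per kb in the controls and 16.3 ± 0.143 in co-culture (SD, n = 3 each), followed by CRY1 at 12.4 ± 0.556 and 11.5 ± 0.203. CLOCK (5.69 ± 0.734 in the controls) and ARNTL (5.12 ± 0.592) came next, and their control libraries overlapped, whereas in co-culture CLOCK (5.60 ± 0.154) lay above ARNTL (4.18 ± 0.0447) in all 3 libraries. NR1D1 had 3.37 ± 0.192 CPM per kb in the controls, above PER1 (2.86 ± 0.198) in each library. PER1, CRY2 (2.85 ± 0.410) and DBP (2.76 ± 0.554) did not differ beyond their spread in the controls. PER3 (1.79 ± 0.0384) and PER2 (0.896 ± 0.103) were the lowest. The lengths come from a later gene set than the counts, so the order is approximate where genes lie close together. They are also those of 1 transcript per gene. All annotated exons together span 6.726 kb against 2.776 kb for ARNTL and 6.544 kb against 2.229 kb for DBP, but 2.772 kb either way for NR1D1. The places of ARNTL and DBP in the order therefore depend on the length taken.

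The wider clock network, from 4 lists of 53 related genes of which 52 were tested, held 8 genes past the threshold, or 15.4%, beside 4.83% of all tested genes. Of these 8, 5 were higher (beside 2.66% of all tested genes) and 3 lower (2.17%). The lists were chosen with earlier results of these data known, so these shares describe the genes listed and support nothing about the network.

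**Figure D3:**
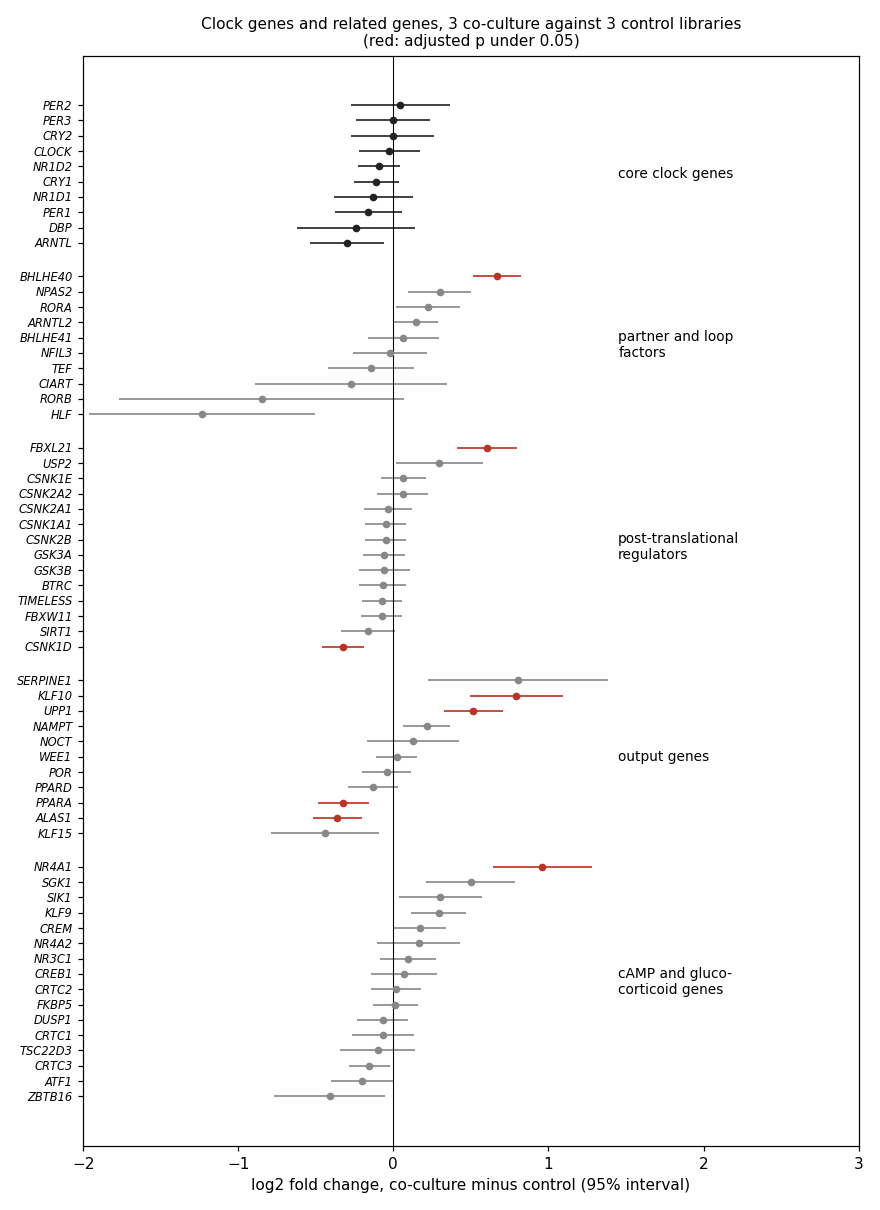
Log2 fold change of co-culture against control (horizontal axis, 95% interval as bar) for the 10 core clock genes (black) and 51 of the tested related genes (grey) in 4 groups, with genes at an adjusted p under 0.05 in red. All core clock genes lie between -0.30 and 0.05, while BHLHE40, FBXL21, UPP1, KLF10 and NR4A1 lie to the right and CSNK1D, ALAS1 and PPARA to the left.

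Among the partner and loop factors, 1 of 10 tested genes was higher, 0 were lower and 9 did not pass (median log2 fold change 0.02). Over all tested genes 2.66% were higher and 2.17% lower, so 1 call in a list this short describes that gene only. BHLHE40 encodes DEC1, a repressor that competes with CLOCK and ARNTL for E-boxes and is also induced by many stimuli. It rose from 83.3, 74.4 and 72.0 CPM in controls 1, 2 and 3 to 128, 116 and 122 CPM in co-culture libraries 1, 2 and 3. The groups were far apart against their spread, at 76.6 ± 5.98 and 122 ± 6.03 CPM (SD, n = 3 each), and differed by 0.67 on the log2 scale (SE 0.07, edgeR adjusted p 0.00105). BHLHE40 kept its call in all 15 other settings, with values from 0.63 to 0.74 and adjusted p-values from 6.32e-13 to 0.0356, and it stood at 0.74 with a batch term for strand class. Its paralogue BHLHE41 (DEC2) had 18.8 ± 2.50 and 19.7 ± 0.882 CPM and differed by 0.06 on the log2 scale (SE 0.10, edgeR adjusted p 0.746).

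NPAS2, which can stand in for CLOCK as the partner of ARNTL, had 18.3, 15.1 and 17.4 CPM in the controls and 20.2, 21.6 and 20.7 CPM in co-culture, without overlap, but did not pass (log2 fold change 0.30, SE 0.09, edgeR adjusted p 0.0874). It passed without control 1 (0.35, edgeR adjusted p 0.00963), a fit in which 3069 of 14734 tested genes passed. HLF, a bZIP factor related to DBP, had 3.64, 2.40 and 1.46 CPM in the controls and 1.00, 0.950 and 1.15 CPM in co-culture (log2 fold change -1.23, SE 0.33, edgeR adjusted p 0.0575). HLF passed with all 6 libraries in DESeq2 (-1.26, adjusted p 0.0253) and in edgeR with no low-count filter (-1.23, adjusted p 0.0294). It also passed without control 1 (-0.84, edgeR adjusted p 0.0388) and without control 3 (-1.53, edgeR adjusted p 0.00698). With the batch term NPAS2 and HLF stood at 0.25 and -1.30 and did not pass. The levels of HLF rest on few reads. Across all 15 alternatives adjusted p-values lay from 0.00963 to 0.494 for NPAS2 and from 0.00698 to 0.380 for HLF. The ARNTL paralogue ARNTL2, the activating receptor RORA, the DBP relative TEF and the D-box repressor NFIL3 had log2 fold changes of 0.15, 0.22, -0.14 and -0.02, and none passed.

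Of the 15 post-translational regulators, 1 was higher, 1 was lower (beside 2.66% and 2.17% of all tested genes) and 13 did not pass (median -0.06). CSNK1D encodes casein kinase 1 delta, which phosphorylates PER proteins and sets the period of the clock. It fell from 260, 251 and 276 CPM in the controls to 202, 211 and 215 CPM in co-culture (log2 fold change -0.32, SE 0.06, edgeR adjusted p 0.0176), while the related kinase gene CSNK1E had 221 ± 13.3 and 232 ± 9.57 CPM (0.07, SE 0.07, edgeR adjusted p 0.585). FBXL21, an F-box gene that current RefSeq lists as a transcribed pseudogene, rose from 14.9, 15.6 and 16.4 CPM to 23.4, 25.6 and 22.6 CPM (0.60, SE 0.09, edgeR adjusted p 0.00510). USP2, a clock-controlled deubiquitinase, had 7.12 ± 0.719 and 8.71 ± 0.332 CPM (0.30, edgeR adjusted p 0.190). It passed without control 1 (0.37, edgeR adjusted p 0.0442), where 3069 of 14734 tested genes did. USP2 stood at 0.30 with the batch term. With a batch term for strand class CSNK1D and FBXL21 stood at -0.38 and 0.58 and lost their calls (edgeR adjusted p 0.189 and 0.164). CSNK1D also missed the threshold when control 2, co-culture library 1 or co-culture library 2 was left out (-0.35, -0.29 and -0.33), and FBXL21 when control 2 or co-culture library 2 was (0.60 and 0.55). Across all 15 alternatives adjusted p-values lay from 0.000133 to 0.189 for CSNK1D, from 1.91e-05 to 0.164 for FBXL21 and from 0.0442 to 0.557 for USP2.

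The 11 output genes, whose transcripts are rhythmic in various tissues, held 2 higher, 2 lower and 7 that did not pass (median 0.02). The shares over all tested genes were 2.66% higher and 2.17% lower, and the list was chosen with earlier results known. KLF10, a zinc-finger factor also known as an early TGF-beta response gene, rose from 37.7, 26.2 and 25.5 CPM in controls 1, 2 and 3 to 54.4, 50.6 and 49.6 CPM in co-culture (log2 fold change 0.79, SE 0.13, edgeR adjusted p 0.0148). UPP1, uridine phosphorylase, rose from 24.2, 24.8 and 22.0 CPM to 30.6, 34.9 and 35.7 CPM (0.52, SE 0.09, edgeR adjusted p 0.0101). ALAS1, the rate-limiting enzyme of haem synthesis in most tissues, fell from 45.4, 42.6 and 48.1 CPM to 34.2, 34.6 and 37.0 CPM (-0.36, SE 0.07, edgeR adjusted p 0.0216). Haem is the ligand of the REV-ERB receptors.

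PPARA, the nuclear receptor of fatty acid oxidation, fell from 57.7, 51.1 and 52.7 CPM in the controls to 40.3, 45.7 and 43.2 CPM in co-culture (log2 fold change -0.32, SE 0.07, edgeR adjusted p 0.0364). NAMPT, the rate-limiting enzyme of NAD salvage, and WEE1, a mitotic kinase gene with E-boxes, had log2 fold changes of 0.21 and 0.02 and did not pass. With a batch term for strand class KLF10, UPP1, ALAS1 and PPARA stood at 0.87, 0.37, -0.41 and -0.42 and lost their calls (edgeR adjusted p from 0.164 to 0.267). All 4 also lost them without co-culture library 2 (0.81, 0.49, -0.35 and -0.36) and without control 2 (0.71, 0.55, -0.40 and -0.36). KLF10, ALAS1 and PPARA lost them without co-culture library 1 (0.76, -0.34 and -0.27), and PPARA without co-culture library 3 (-0.32). The lowest adjusted p-values over the 15 settings were 6.21e-08, 0.000141, 0.00208 and 0.00891 for KLF10, UPP1, ALAS1 and PPARA, and the highest were those with the batch term.

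The 16 genes of the cyclic AMP and glucocorticoid responses, the stimuli that also act on PER1, held 1 higher, 0 lower and 15 that did not pass (median 0.04). Over all tested genes 2.66% were higher and 2.17% lower. NR4A1, an immediate-early nuclear receptor gene, rose from 10.9, 8.35 and 6.94 CPM in the controls to 17.6, 16.5 and 16.5 CPM in co-culture (log2 fold change 0.96, SE 0.14, edgeR adjusted p 0.00669). It lost its call with a batch term for strand class (1.02, edgeR adjusted p 0.131) and when control 2, co-culture library 1 or co-culture library 2 was left out (0.93, 0.93 and 0.98). Its adjusted p over the 15 settings ran from 7.35e-07 to 0.131. SGK1 and KLF9, which glucocorticoids induce, stood at 0.50 (SE 0.13) and 0.29 (SE 0.08) on the log2 scale, without overlap between the groups, and did not pass (edgeR adjusted p 0.0520 and 0.0609). With all 6 libraries both passed in DESeq2 (adjusted p 0.0204 and 0.0306) and in edgeR with no low-count filter (adjusted p 0.0282 and 0.0349). SGK1 also passed without control 1 (0.37), where 3069 of 14734 tested genes passed, or control 3 (0.57), and KLF9 without control 1 (0.38). With the batch term they stood at 0.65 and 0.36 and did not pass (edgeR adjusted p 0.226 and 0.287), the highest adjusted p of each over the 15 settings, and the lowest were 0.0170 and 0.000327. The glucocorticoid targets FKBP5 and TSC22D3 had log2 fold changes of 0.01 and -0.10 and did not pass, and DUSP1 stood at -0.07. ZBTB16, from the same list, went down, at -0.41 (SE 0.16), with all co-culture libraries below all controls. It did not pass either (edgeR adjusted p 0.162).

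**Figure D4:**
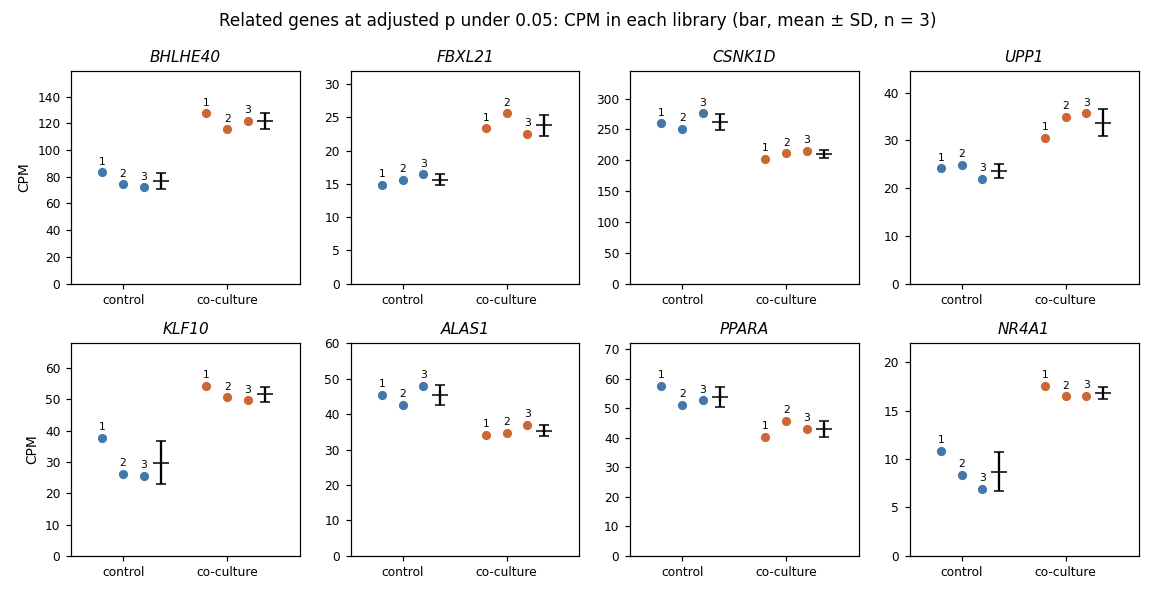
Level in CPM (vertical axes from 0) of the 8 related genes with an adjusted p under 0.05, by library, with replicate numbers and the mean ± SD of each group (n = 3). In all 8 genes the 3 control (blue) and 3 ROS co-culture (orange) libraries do not overlap, and for KLF10 and NR4A1 control 1 is the nearest control to the co-culture libraries.

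**Figure D5:**
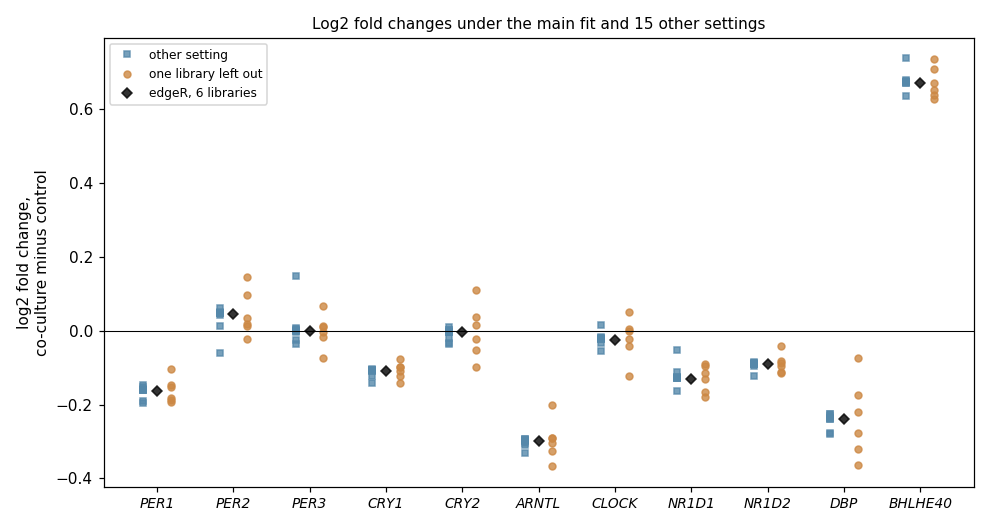
Log2 fold change of each core clock gene and of BHLHE40 (vertical axis) in the fit of all 6 libraries (black), in 9 other settings (blue squares) and with 1 library left out (orange circles). ARNTL stays between -0.37 and -0.20 and BHLHE40 between 0.63 and 0.74, while PER2, PER3, CRY2 and CLOCK lie on both sides of 0.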

How the data were processed

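Per the submitters' processing notes, FastQC and STAR 2.53a were used with genome build hg18, and the annotation release is not given in the sources used here. The authors deposited raw counts of reads per gene, 1 file for each of the 6 samples, in the layout of STAR's gene counting. The extract protocol in the labels names TriPure and a stranded mRNA kit, and the reverse-strand counts were used. Summary lines that name no gene took 24.2% to 28.5% of reads and were left out. Multimapping reads are not counted per gene. No coordinates of the authors' build are printed.

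Genes were filtered with filterByExpr (minimum count 10), which left 14582 genes, and fitted in edgeR 4.0.16 (R 4.3.3) with TMM scaling, robust quasi-likelihood F tests, group as the only term and Benjamini-Hochberg adjustment at 0.05. Standard errors were taken from the fold change and its F statistic (size of the change over root F), and 95% intervals use the fit's degrees of freedom. Alternatives used DESeq2 1.42.0, limma 3.58.1, other scalings, filters and counts, a replicate block, a strand-class term (libraries under 0.5% median unexpected-strand reads) and each library left out. The members, the gene lists and all settings were chosen with earlier results of these data known. Named with values were all members and, from each related list, the genes past the threshold or, where fewer than 3 passed, the 3 with the lowest p at a mean of at least 1 CPM. Other genes named were chosen after their values were seen. Of the listed related genes, 2 are counted but not reported here by name. CIART and NOCT were found under older symbols. The test was tested on simulated data.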

Additional observations from a re-analysis of the deposited data

How the results depend on the processing

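The 13 related genes named by rule all kept their direction in all 15 other settings. They were picked by low p-values in these same libraries, so this was likely beforehand and is no measure of robustness. Of the 10 clock genes, which were not picked by p-value, 6 kept their direction in all 15. The other 4 clock genes lie near 0 and changed sign. PER2 was -0.0611 with a batch term for strand class and -0.0219 without control 2, with a range of -0.0219 to 0.145 over the fits with a library left out. PER3 was 0.00021 with no low-count filter, 0.0033 at a minimum count of 30, 0.0065 with unstranded counts and 0.147 with a batch term for strand class, and from -0.0729 to 0.0658 with a library left out. CRY2 was 0.00097 at a minimum count of 30, 0.0088 with unstranded counts and 0.00049 with the replicate block, and from -0.0991 to 0.111 with a library left out. CLOCK was 0.0158 with a batch term for strand class and from -0.124 to 0.0514 with a library left out. The number of clock genes past the threshold ran from 0 to 1 with a library left out, and it was 0 in the 9 other settings. The related genes past the threshold numbered from 1 to 19 with a library left out (1 without control 2 or co-culture library 2, 19 without control 1), 1 with a batch term for strand class and 5 with the replicate block. All genes past the threshold, 704 in the main comparison, numbered from 65 to 3069 with a library left out, 29 with a batch term for strand class and 164 with the replicate block. The causes were not tested. The labels do not say whether same-numbered libraries were handled together. Deviations of same-numbered libraries correlated at -0.0579, -0.13 and -0.138 across genes, and those of differently numbered libraries at 0.00328 to 0.116. The deviations were taken from each group's mean, which ties these values together, so they cannot settle what the numbers mean. With the block CSNK1D, ALAS1 and PPARA lost their calls (edgeR adjusted p 0.0642, 0.0657 and 0.115). Total counts gave 310 higher and 572 lower genes, against 388 and 316. DBP and PER2 had 99 to 216 reads per library, with counting errors of 8.10% to 8.92%. Their coefficients of variation were 20.1% and 11.5% in the controls and 10.1% and 6.30% in co-culture.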
